A study of Homo sapiens with 9 samples.

Results

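Integrins and laminins were followed as the 38 genes of the count table whose symbols name an integrin alpha subunit (18 genes), an integrin beta subunit (8 genes) or a laminin alpha, beta or gamma chain (12 genes), out of 58735 rows with a gene symbol. Their RNA was sequenced from MDA-MB-231 cells, an established human line of breast cancer, mesenchymal in character and without hormone receptors. There were 6 libraries labelled sgL1 (replicates 1 to 6) and 3 labelled sgCtrl (replicates 1 to 3), and all 9 came from cells kept in hypoxia for 6 h. The design text names cells without UFL1 or UFM1, genes of UFMylation, in which the small protein UFM1 is joined to other proteins by the ligase UFL1. sgL1 is read here as a guide against UFL1 and sgCtrl as its control guide, which the labels do not spell out. The labels do not say whether a group was a pool of cells or a clone, nor whether its libraries came from separate cultures. The p-values therefore measure only the spread between these libraries, which may be technical.

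Integrins are receptors of an alpha and a beta subunit that tie the extracellular matrix to the actin or keratin cytoskeleton, and the alpha subunit largely sets which ligand is bound. Laminins are secreted trimers of an alpha, a beta and a gamma chain that build basement membranes, and several integrins bind them. In epithelial cells laminins anchor hemidesmosomes through the integrin of ITGA6 and ITGB4, while collagen and fibronectin are held by other partners of ITGB1.

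Totals on named genes ran between 15420073 and 17038409 counts, so that a count of 0 allows up to 0.176 to 0.195 CPM (counts scaled to library size), for counting error only. UFL1 stood at 15.2, 12.9, 12.9, 22.8, 20 and 21.2 CPM in sgL1 libraries 1 to 6, against 27.4, 25.3 and 25.3 CPM in sgCtrl. Each sgL1 library was below every sgCtrl library, but the difference did not pass the test (log2 fold change -0.57, SE 0.20, edgeR adjusted p = 0.126). The sgL1 libraries also stand apart from each other: on the second principal component (14.1% of the variance) replicates 1 to 3 lay between 5.37 and 19.7, replicates 4 to 6 between -19.6 and -5.51, and sgCtrl between -4.63 and 3.47. The labels do not separate these sgL1 libraries, so results are also given with each set alone. Markers that MDA-MB-231 expresses (VIM, CD44, EGFR, CAV1, KRT18) summed to 3140.4 to 3344 CPM in sgL1 and 3345 to 3408 CPM in sgCtrl. Within this sum CD44 rose (log2 0.34, edgeR adjusted p = 2.71e-08), while EGFR (-0.15, 0.00891) and CAV1 (-0.32, 5.53e-06) fell. Markers low in this line (ESR1, PGR, GATA3, FOXA1, CDH1) summed to 27.4 to 30.4 CPM in sgL1 and 20.3 to 24.6 CPM in sgCtrl. Of these FOXA1 had 21.4 to 24.7 CPM in sgL1 and 15 to 18.6 CPM in sgCtrl, and rose (log2 0.46, 0.000355).

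Of the 38 genes, 20 reached a mean of at least 1 FPKM over the 9 libraries, which is the level called expressed here. FPKM, the fragment count scaled to gene length and library size that the authors deposited, is the scale used to compare different genes. Another 6 were tested but stayed lower, from LAMA1 at 0.589 FPKM to LAMA2 at 0.118 FPKM, with ITGB3, ITGB7, ITGA7 and ITGB8 between them. The other 12 had too few counts for the test, never above 9 in a library, and 7 of these (ITGA4, ITGA8, ITGA9, ITGAL, ITGAM, ITGA2B and ITGB6) had at most 3 counts in any library. ITGAD, ITGAX, ITGA11, LAMB4 and LAMC3 completed the untested genes.

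Alpha subunits were led by both laminin receptors. ITGA6, which pairs with ITGB1 or ITGB4, had 105 ± 10.1 FPKM in sgL1 and 97.5 ± 2.83 FPKM in sgCtrl (SD, n = 6 and n = 3, as for all means below). ITGA3, a laminin receptor with ITGB1, had 85.9 ± 4.49 FPKM in sgL1 and 89.6 ± 0.78 FPKM in sgCtrl. ITGA2, a collagen receptor, had 64.9 ± 4.56 FPKM in sgL1 and 45.7 ± 1.94 FPKM in sgCtrl. In sgCtrl the ranges of ITGA6 (95 to 101 FPKM) and ITGA3 (89.1 to 90.5 FPKM) were close but apart. In sgL1 the lowest ITGA6 library, at 92.4 FPKM, nearly met the highest ITGA3 library, at 92 FPKM. ITGA5, the fibronectin receptor subunit, and ITGAV, which binds vitronectin and other ligands carrying the Arg-Gly-Asp (RGD) motif, followed at 27.8 and 22.7 FPKM over all libraries. ITGA1 and ITGA10, further collagen receptors, had 3.14 and 1.83 FPKM, and ITGAE, known from lymphocytes of epithelia, 3.01 FPKM. ITGA1 has 18566 exon bases in GENCODE 29, and this length lowers its FPKM for its counts.

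Beta subunits were dominated by ITGB1, the partner of most alpha subunits, at 142 ± 7 FPKM in sgL1 and 131 ± 4.12 FPKM in sgCtrl. It made up 78.7% to 83.1% of all beta FPKM in sgL1 and 78.3% to 80.6% in sgCtrl. ITGB5, an ITGAV partner, came next at 20 FPKM over all libraries, and ITGB4 and ITGB2 followed at 6.45 and 6.34 FPKM.

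**Figure D1:**
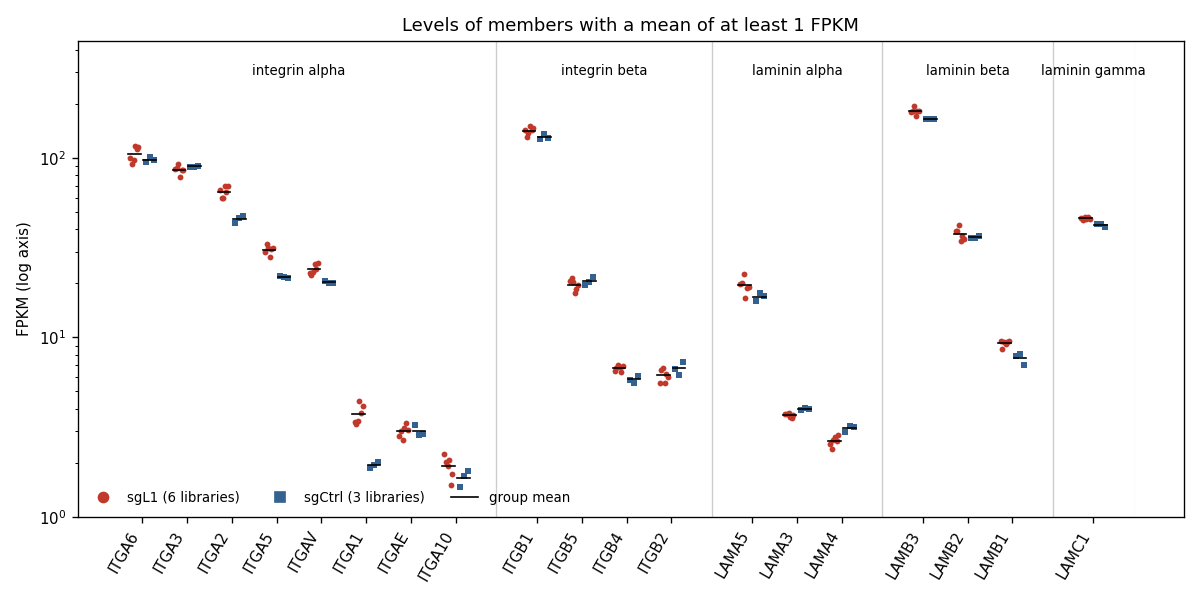
Deposited FPKM (log axis) of expressed members, by class, with 1 point per library (sgL1 left of sgCtrl) and a line at each group mean. LAMB3 and ITGB1 lie highest, at 176 and 138 FPKM over all libraries, and the sgL1 and sgCtrl points of ITGA2, ITGA5 and ITGA1 are set apart.

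Of 24 known alpha and beta pairs, 9 had both subunits at 1 FPKM or more. These were ITGB1 with ITGA1, ITGA2, ITGA3, ITGA5, ITGA6, ITGA10 and ITGAV, ITGB4 with ITGA6, and ITGB5 with ITGAV. No pair of ITGB2, ITGB3, ITGB6, ITGB7 or ITGB8 met this. ITGB2 is the leukocyte beta subunit, and its partners ITGAL, ITGAM, ITGAX and ITGAD never exceeded 6 counts in a library. Leukocyte markers summed to 7.97 to 9.9 CPM in sgL1 and 7.21 to 9.25 CPM in sgCtrl, with 8 of 10 under 1 CPM and CD3E at 0. Most of this sum was CORO1A (5.25 to 7 CPM in sgL1, 4.77 to 6.63 CPM in sgCtrl) and CD14 (1.37 to 2.36 and 1.28 to 2.01 CPM). Platelet markers summed to 0.766 to 1.68 CPM in sgL1 and 0.576 to 0.957 CPM in sgCtrl, with 5 of 8 at 0. GP1BA made up most of this platelet sum. ITGA2B, of at most 3 counts in any library, is itself on the platelet list, so the sum is not independent of it. RNA levels do not show which pairs form at the cell surface.

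The partners of ITGB1 other than ITGAV summed to 279, 293 and 308 FPKM in sgL1 (lowest, median, highest) and to 253, 259.9 and 261 FPKM in sgCtrl. That was 1.98 to 2.13 times ITGB1 itself in sgL1 and 1.93 to 2.02 times in sgCtrl. ITGA6 was 13.6 to 17.4 times ITGB4 in sgL1 and 15.8 to 18 times in sgCtrl, so its transcripts were in wide excess over those of the hemidesmosomal partner. ITGAV stood at 1.04 to 1.45 times ITGB5 in sgL1 and 0.933 to 1.05 times in sgCtrl.

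All laminin classes had expressed chains. LAMB3, a beta chain of epithelial basement membranes, was the highest of all 38 genes, at 182 ± 7.24 FPKM in sgL1 and 164 ± 0.655 FPKM in sgCtrl. LAMC1, the gamma chain of most laminins, had 46.2 ± 0.695 FPKM in sgL1 and 42.2 ± 0.907 FPKM in sgCtrl. LAMB2, a beta chain first known from synapses and kidney, had 37.9 ± 2.89 FPKM in sgL1 and 36.1 ± 0.527 FPKM in sgCtrl. Alpha chains were lower: LAMA5 was at 18.6 FPKM over all libraries, LAMA3 at 3.78 FPKM and LAMA4 at 2.81 FPKM, and LAMB1 was at 8.75 FPKM.

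Of 13 laminins considered, 6 had all their chains at 1 FPKM or more, namely 311, 321, 411, 421, 511 and 521, where the digits give the alpha, beta and gamma chain. Laminins that hold LAMB3 were not among the 13 and are not reported here. The lowest chain was the alpha chain in 5 of them (LAMA3, LAMA4 or LAMA5), and LAMB1 in laminin 511. LAMB3 was 48.2 to 51.4 times LAMA3 in sgL1 and 40.7 to 41.9 times in sgCtrl. The length used for LAMA3 joins all its transcripts, long and short, which lowers its FPKM.

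To ask what differed between the guides, counts were tested gene by gene over the whole table. Of the 26 tested members 9 rose in sgL1 and 1 fell (edgeR adjusted p under 0.05), where 9.49% of all 15242 genes tested were called, 5.52% as risen and 3.98% as fallen. All 10 were among the 20 expressed members, and of all tested genes at 1 FPKM or more 11.1% were called, 6.41% as risen and 4.7% as fallen. DESeq2 called 10 as risen, LAMA5 being the added one, and 1 as fallen. The median log2 fold change of the 26 was 0.14, beside 0.00 over all genes. The risen genes described here are the alpha subunits ITGA1, ITGA2, ITGA5 and ITGAV, the beta subunit ITGB4 and the laminin chains LAMB1, LAMB3 and LAMC1. LAMA4 fell. Of the 16 tested integrin subunits 0 fell in edgeR, 0 at an unadjusted p under 0.05 and 0 with DESeq2. Of all 15242 genes tested, 1479 fell at an unadjusted p under 0.05. ITGA3 and ITGB5 did fall with sgL1 replicates 4 to 6 alone (log2 -0.11 and -0.14, edgeR adjusted p = 0.0228 and 0.024). The sgL1 and sgCtrl libraries did not overlap for 11 of the 26, against 14% of all genes tested. In 9 of these sgL1 lay above sgCtrl (7.61% of all genes tested) and in 2, LAMA3 and LAMA4, below (6.4%). Fewer cells expressing a gene and less RNA per cell cannot be told apart in such bulk samples.

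**Figure D2:**
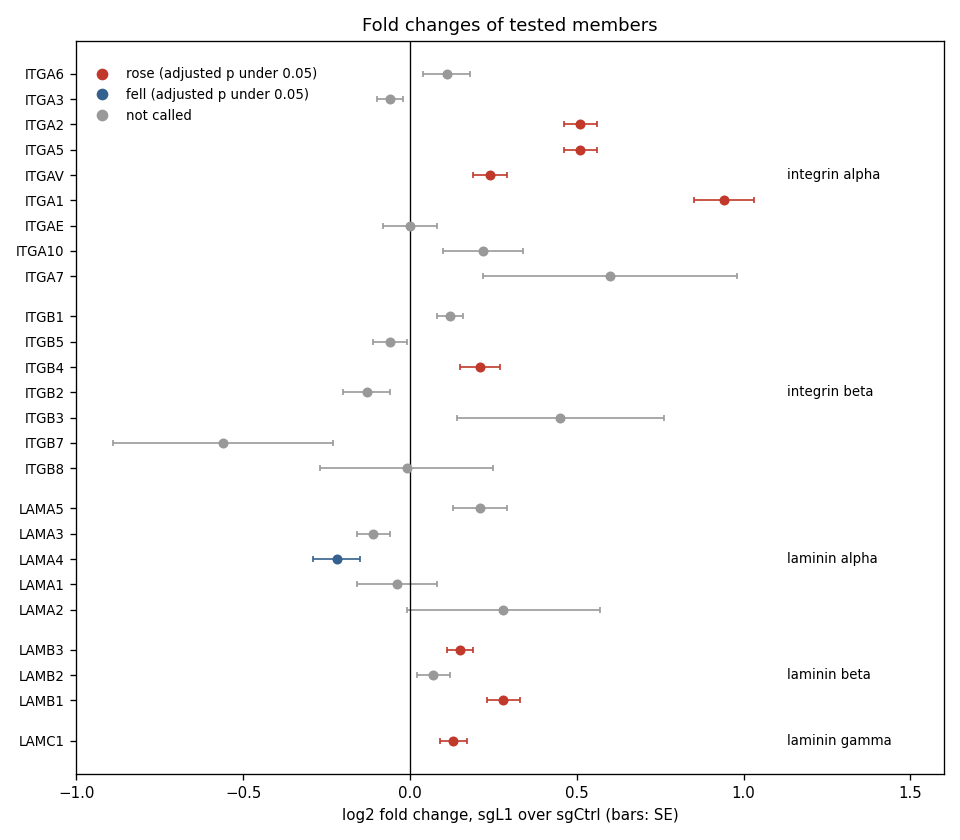
Log2 fold change of sgL1 over sgCtrl from edgeR, with bars for its SE, for tested members, ordered by mean FPKM within each class. ITGA1 (0.94), ITGA2 (0.51) and ITGA5 (0.51) lie far to the right, LAMA4 (-0.22) is the fallen one, and the widest bars belong to members under 1 FPKM such as ITGA7 (0.60, SE 0.38).

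Among collagen receptors, ITGA1 had 63.4, 61.4, 63.9, 82.7, 70.6 and 77.5 CPM in sgL1 replicates 1 to 6 (lowest 61.4, median 67.3, highest 82.7), against 35, 36.3 and 37.9 CPM in sgCtrl. All sgL1 libraries were above all sgCtrl libraries, and ITGA1 rose 1.92-fold (log2 0.94, SE 0.09, edgeR adjusted p = 1.14e-06). ITGA1 (ENSG00000213949; chromosome 5, 52787896 to 52959210, plus strand, GRCh38) shares 475 exon bases on its own strand with PELO, a ribosome rescue factor gene that rose too, with 85.2 ± 1.81 CPM in sgL1 and 70.2 ± 1.93 CPM in sgCtrl (log2 0.28, adjusted p = 0.000143), and the part of shared reads in ITGA1 was not tested. ITGA2, its neighbour on chromosome 5 (ENSG00000164171; 52989326 to 53094779, plus strand), had a lowest, median and highest level of 474, 522 and 558 CPM in sgL1, against 347, 369 and 376 CPM in sgCtrl. The groups did not overlap and ITGA2 rose 1.42-fold (log2 0.51, SE 0.05, adjusted p = 9.33e-08). ITGA10 did not pass (log2 0.22, SE 0.12, adjusted p = 0.292), with 1.91 ± 0.262 FPKM in sgL1 and 1.65 ± 0.174 FPKM in sgCtrl. Fibroblast markers, a cell type rich in collagen receptors, summed to 15.8 to 20.6 CPM in sgL1 and 11.5 to 14.5 CPM in sgCtrl, with 6 of 8 under 1 CPM, COL1A2 and LUM at 0 and PDGFRB risen (log2 0.67, adjusted p = 0.000837), and their part in these results was not tested. Endothelial markers summed to 14.3 to 16.1 CPM in sgL1 and 10.2 to 13.9 CPM in sgCtrl, with 4 of 6 under 1 CPM. PECAM1 rose (log2 0.75, adjusted p = 0.000273), and CDH5 was at most at 0.128 CPM. KDR overlapped, with 4.04 to 6.98 CPM in sgL1 and 5.33 to 6.84 CPM in sgCtrl (log2 -0.14, adjusted p = 0.694). The part of endothelial cells in these results was not tested either.

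Among receptors of RGD ligands, ITGA5 (ENSG00000161638; chromosome 12, 54395261 to 54419460, minus strand) had 215, 238 and 252 CPM in sgL1 (lowest, median, highest), against 168, 166 and 162 CPM in sgCtrl. It rose 1.43-fold with no overlap (log2 0.51, SE 0.05, adjusted p = 3.49e-09). ITGAV (ENSG00000138448; chromosome 2, 186590065 to 186680901, plus strand) had 185, 196 and 213 CPM in sgL1, against 172, 166 and 166 CPM in sgCtrl. It rose 1.18-fold (log2 0.24, SE 0.05, adjusted p = 0.000765), with no overlap. Its partner ITGB5 had 114, 129.9 and 139.8 CPM in sgL1, against 128, 132 and 139.7 CPM in sgCtrl, and did not pass (log2 -0.06, SE 0.05, adjusted p = 0.588). ITGB3, the vitronectin receptor partner also known from platelets, was low, at 12 to 32 counts in a library, and did not pass (log2 0.45, SE 0.31, adjusted p = 0.455).

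Upstream sequences are shown for the risen integrin genes with the largest fold changes, and for LAMA3 and LAMB3, laminin chains that hold the AP-1 matches among members. They are the 250 bases before a RefSeq start of the gene (GRCh38.p14), 5′ to 3′ on the gene's strand, at chr5:52787666-52787915 (plus) for ITGA1, chr5:52989102-52989351 (plus) for ITGA2, chr12:54419267-54419516 (minus) for ITGA5, chr18:23872770-23873019 (plus) for LAMA3 and chr1:209651375-209651624 (minus) for LAMB3, which has 3 such windows. By the GENCODE 29 coordinates the LAMA3 and LAMB3 windows lie wholly inside the gene, before a start within it, and the windows of ITGA1, ITGA2 and ITGA5 reach partly into the gene. Capitals mark a match to TGANTCA (AP-1), GGAATG or CATTCC (TEAD), or ACGTG or CACGT (core of the hypoxia response element).
ITGA1: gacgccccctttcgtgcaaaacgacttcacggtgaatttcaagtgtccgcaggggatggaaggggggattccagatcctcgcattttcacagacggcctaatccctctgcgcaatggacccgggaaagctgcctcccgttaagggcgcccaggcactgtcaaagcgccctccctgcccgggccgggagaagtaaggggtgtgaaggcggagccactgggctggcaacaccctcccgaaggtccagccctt
ITGA2: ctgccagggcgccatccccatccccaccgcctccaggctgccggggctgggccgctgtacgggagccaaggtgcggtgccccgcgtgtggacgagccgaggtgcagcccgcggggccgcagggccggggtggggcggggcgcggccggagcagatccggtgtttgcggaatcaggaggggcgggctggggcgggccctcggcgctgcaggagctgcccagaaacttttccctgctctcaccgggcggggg
ITGA5: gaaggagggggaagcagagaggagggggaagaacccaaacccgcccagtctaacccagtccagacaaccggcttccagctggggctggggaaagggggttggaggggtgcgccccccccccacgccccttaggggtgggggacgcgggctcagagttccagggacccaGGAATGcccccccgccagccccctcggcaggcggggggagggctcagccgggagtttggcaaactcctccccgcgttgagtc
LAMA3: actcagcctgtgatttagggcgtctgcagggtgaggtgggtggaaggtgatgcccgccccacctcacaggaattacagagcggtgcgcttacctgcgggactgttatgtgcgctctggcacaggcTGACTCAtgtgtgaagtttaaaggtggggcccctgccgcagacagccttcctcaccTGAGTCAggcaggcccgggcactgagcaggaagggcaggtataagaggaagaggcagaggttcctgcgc
LAMB3: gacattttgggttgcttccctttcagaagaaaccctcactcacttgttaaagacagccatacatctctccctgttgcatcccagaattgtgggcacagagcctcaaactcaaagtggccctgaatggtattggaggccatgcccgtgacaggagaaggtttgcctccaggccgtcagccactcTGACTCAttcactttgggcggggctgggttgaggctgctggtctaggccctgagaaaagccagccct

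Matches were counted on both strands, in any window of a gene, for the 26 of 38 members in the RefSeq table. The AP-1 motif was found in 2 of 26 members (7.69%), LAMA3 and LAMB3, against 8.06% of 27305 genes. The TEAD motif was found in 4 of 26 (15.4%; ITGB1, ITGA5, ITGA10, LAMA2), against 14.3% of genes, and the hypoxia response core in 2 of 26 (7.69%; ITGA6, ITGA11), against 21.7%. Of the 7 risen members in the table, 1 held the AP-1 motif, 1 the TEAD motif and 0 the hypoxia core. A match is letters in a window and shows no binding.

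Of ITGA3, ITGA6, ITGB1 and ITGB4, the expressed subunits grouped here as laminin receptors, ITGB4 passed the test. ITGA3 had 772, 851 and 911 CPM in sgL1 (lowest, median, highest), against 882, 882 and 891 CPM in sgCtrl, so sgL1 spread to both sides of sgCtrl (log2 -0.06, SE 0.04, adjusted p = 0.433). ITGA6 had 655, 608, 645, 765, 736 and 756 CPM in sgL1 replicates 1 to 6, against 626, 663 and 636 CPM in sgCtrl, with overlap (log2 0.11, SE 0.07, adjusted p = 0.426). The sgL1 replicates 4 to 6 were all higher for ITGA6 than replicates 1 to 3. ITGB4 (ENSG00000132470; chromosome 17, 75721328 to 75757818, plus strand), which anchors keratin filaments, had 43.9, 46.4 and 47.8 CPM in sgL1, against 39.7, 38.1 and 41.5 CPM in sgCtrl. It rose 1.16-fold (log2 0.21, SE 0.06, adjusted p = 0.0224), a call lost without sgCtrl replicate 1 (adjusted p = 0.104) or 2 (0.164). ITGB1 had 793, 867 and 911 CPM in sgL1, against 774, 819.8 and 778 CPM in sgCtrl, and missed the threshold (log2 0.12, SE 0.04, adjusted p = 0.0558), which it passed without sgL1 replicate 2 (0.0101) or 3 (0.034). 

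Other tested integrin genes did not pass. ITGB2 had 38, 42.1 and 46.5 CPM in sgL1 (lowest, median, highest), against 45.7, 42.6 and 49.9 CPM in sgCtrl, with overlap (log2 -0.13, SE 0.07, adjusted p = 0.3). ITGAE had 3.01 ± 0.232 FPKM in sgL1 and 3 ± 0.211 FPKM in sgCtrl (log2 0.00, adjusted p = 0.991). ITGAE shares 427 exon bases on the opposite strand with HASPIN, a histone kinase gene of 442 to 561 counts, and ITGB2 shares 303 with ITGB2-AS1, of 106 to 173 counts. Reads of such partners cannot be told apart without the strand. ITGA7, the laminin receptor subunit of muscle, had 0.174 ± 0.0631 FPKM in sgL1 and 0.115 ± 0.0565 FPKM in sgCtrl (log2 0.60, SE 0.38, adjusted p = 0.398). ITGB7, the partner of ITGAE, had 0.174 ± 0.0423 FPKM in sgL1 and 0.258 ± 0.0962 FPKM in sgCtrl (log2 -0.56, SE 0.33, adjusted p = 0.349). It had 8 to 26 counts and shares 1886 exon bases on the opposite strand with ZNF740, of 615 to 858 counts. The effect of this overlap on the level of ITGB7 was not tested. ITGB8, an ITGAV partner that activates latent TGF-beta, had 0.118 ± 0.0335 FPKM in sgL1 and 0.119 ± 0.0203 FPKM in sgCtrl. All of these low genes overlapped between the groups.

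**Figure D3:**
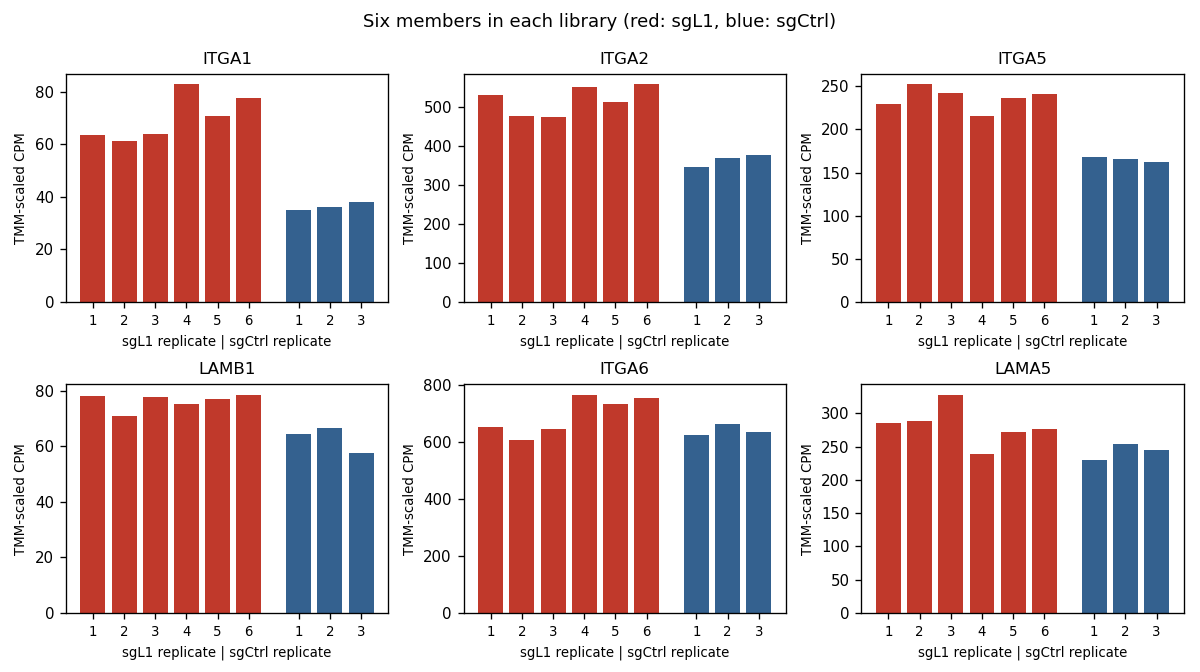
TMM-scaled CPM of ITGA1, ITGA2, ITGA5, LAMB1, ITGA6 and LAMA5 as 1 bar per library, the 6 sgL1 replicates left and the 3 sgCtrl replicates right. In the first 4 genes every sgL1 bar is above every sgCtrl bar (61.4 to 82.7 CPM in sgL1 and 35 to 37.9 CPM in sgCtrl for ITGA1), while those of ITGA6 and LAMA5 overlap.

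The makeup of the alpha subunits differed between the same libraries. Collagen-binding subunits (ITGA1, ITGA2, ITGA10, ITGA11) held 20.7%, 22% and 23.2% of alpha FPKM in sgL1 (lowest, median, highest) and 16.9%, 17.5% and 18.1% in sgCtrl. RGD-binding subunits held 16.4%, 16.9% and 18.2% in sgL1 and 14.6%, 14.7% and 15.4% in sgCtrl. Laminin-binding subunits held 59.2%, 59.5% and 60.8% in sgL1 and 66.2%, 66.5% and 66.8% in sgCtrl, although their summed level overlapped between the groups (180.5 to 201 FPKM in sgL1, 184 to 189.9 FPKM in sgCtrl). ITGA2 was 0.434 to 0.477 of ITGB1 in sgL1 and 0.341 to 0.367 in sgCtrl, and ITGA5 0.187 to 0.252 in sgL1 and 0.161 to 0.172 in sgCtrl. These shares are descriptions of the same values and carry no test of their own.

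**Figure D4:**
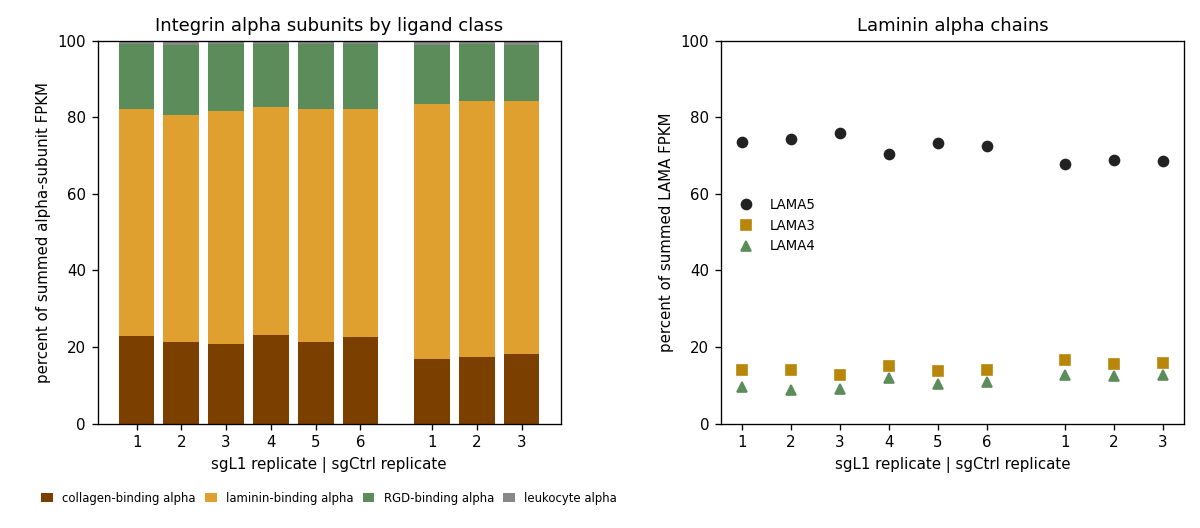
Left, the percent of summed alpha subunit FPKM held by each ligand class in each library, and right, the percent of summed laminin alpha chain FPKM held by LAMA5, LAMA3 and LAMA4, with sgL1 replicates left of sgCtrl replicates. Laminin-binding integrin subunits take 59.2% to 60.8% in sgL1 and 66.2% to 66.8% in sgCtrl, and LAMA5 takes 70.4% to 76% in sgL1 and 67.9% to 68.9% in sgCtrl.

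Among laminin chains, LAMC1 (ENSG00000135862; chromosome 1, 183023460 to 183145592, plus strand) had 384, 390.4 and 398 CPM in sgL1, against 363, 362 and 348 CPM in sgCtrl. The rise of LAMC1 was small at 1.09-fold (log2 0.13, SE 0.04, adjusted p = 0.0191), and its call was lost without sgL1 replicate 5 (adjusted p = 0.0548) or without sgCtrl replicate 1, 2 or 3 (0.0659, 0.0609 and 0.158). LAMB3 (ENSG00000196878; chromosome 1, 209614870 to 209652466, minus strand) had 814, 859 and 923 CPM in sgL1, against 777, 774 and 777 CPM in sgCtrl. It rose 1.11-fold (log2 0.15, SE 0.04, adjusted p = 0.00737), a call lost without sgCtrl replicate 1 (0.0547) or 2 (0.0511). LAMA3 had 52.4, 55.1 and 56.4 CPM in sgL1, against 58.1, 59.6 and 58.5 CPM in sgCtrl, lower in every sgL1 library but not called (log2 -0.11, SE 0.05, adjusted p = 0.24).

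Of the other laminin chains, LAMB1 (ENSG00000091136; chromosome 7, 107923799 to 108003255, minus strand), a partner in many basement membranes, had 71.1, 77.4 and 78.4 CPM in sgL1, against 64.4, 66.7 and 57.7 CPM in sgCtrl. It rose 1.21-fold (log2 0.28, SE 0.05, adjusted p = 0.000749), with no overlap. LAMA4 (ENSG00000112769; chromosome 6, 112108760 to 112254939, minus strand), the alpha chain known from vessel walls, had 27.9, 31.2 and 33.4 CPM in sgL1, against 34.8, 37.3 and 36.6 CPM in sgCtrl. It fell to 0.856 of sgCtrl (log2 -0.22, SE 0.07, adjusted p = 0.038), and the call was lost without sgL1 replicate 1, 2 or 5 (adjusted p = 0.0692, 0.0608 and 0.0579) or sgCtrl replicate 1, 2 or 3 (0.0624, 0.186 and 0.141). LAMA5, the widespread alpha chain of adult epithelia, had 239, 281 and 327 CPM in sgL1, against 229.9, 254 and 245 CPM in sgCtrl, and missed the threshold (log2 0.21, SE 0.08, adjusted p = 0.137). LAMA5 passed in 6 of 23 alternatives, among them without sgL1 replicate 4 (0.00191), without a filter (0.000177), with DESeq2 (0.0309) and with limma-voom (0.0374). LAMB2 had 238, 263 and 293 CPM in sgL1, against 249, 247 and 253 CPM in sgCtrl, with overlap (log2 0.07, SE 0.05, adjusted p = 0.468). LAMA1, the embryonic alpha chain, had 0.583 ± 0.0813 FPKM in sgL1 and 0.601 ± 0.0497 FPKM in sgCtrl, and LAMA2, the alpha chain of muscle, 0.125 ± 0.027 FPKM in sgL1 and 0.103 ± 0.00659 FPKM in sgCtrl. Neither passed (log2 -0.04 and 0.28, adjusted p = 0.894 and 0.647). LAMA5 shares 244 exon bases on the opposite strand with ADRM1, which did not pass (log2 0.09, adjusted p = 0.44). LAMB1 shares 70 with DLD, which did not pass either (log2 -0.14, adjusted p = 0.0845). LAMA5 held 70.4% to 76% of alpha chain FPKM in sgL1 and 67.9% to 68.9% in sgCtrl, and LAMB3 78.8% to 80.2% of beta chain FPKM in sgL1 and 78.9% to 79% in sgCtrl.

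Replicates 1 to 3 and 4 to 6 of sgL1 were also set separately against the same 3 sgCtrl libraries. The log2 fold change of ITGA1 was 0.79 with replicates 1 to 3 and 1.08 with 4 to 6, that of ITGA2 0.44 and 0.57, and that of ITGA5 0.54 and 0.48, in the same order. All of these passed in either set, although for ITGA1 the levels of replicates 4 to 6 (70.6 to 82.7 CPM) were all above those of replicates 1 to 3 (61.4 to 63.9 CPM). Other genes passed in 1 set alone: ITGA6 was at -0.01 (adjusted p = 0.853) with replicates 1 to 3 and 0.23 (1.87e-07) with 4 to 6, and ITGB1 at 0.07 (0.2) and 0.17 (5.71e-05). LAMA5 was at 0.30 (0.000341) with replicates 1 to 3 and 0.11 (0.171) with 4 to 6, and LAMB2 at 0.16 (0.00478) and -0.02 (0.806). LAMA4, which fell with all libraries, was at -0.29 (0.00763) with replicates 1 to 3 and -0.17 (0.125) with 4 to 6. The difference between the sets was not tested, since the labels do not name them.

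Known partners of these genes were taken from 5 lists, chosen with earlier results of these data known. The counts of each list are to be read beside all 15242 genes tested, of which 5.52% rose and 3.98% fell. At 1 FPKM or more these shares were 6.41% and 4.7%. Among 47 tested adaptors and signalling proteins of integrins, 0 rose and 10 fell (median log2 -0.03). At an unadjusted p under 0.05, 4 rose and 11 fell, where 1793 and 1479 of all 15242 genes tested did. DESeq2 called 0 as risen and 11 as fallen, where it called 861 and 642 of 13419 genes. In edgeR 1 adaptor rose without sgL1 replicate 3, as with limma-voom, and 6 fell without sgCtrl replicate 3. With sgL1 replicates 1 to 3 alone 3 rose, and with replicates 4 to 6 alone 2 rose. VCL (vinculin), which links talin to actin, had 339 ± 13.1 CPM in sgL1 and 460.3 ± 10.5 CPM in sgCtrl (log2 -0.44, adjusted p = 2.23e-09). PDLIM5, a LIM protein of actin fibres, had a log2 fold change of -0.46 and the focal adhesion protein TNS3 of -0.32 (adjusted p = 2.42e-08 and 5.61e-05).

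Of 29 tested matrix and cell-surface ligands of integrins, 10 rose and 5 fell (median log2 0.18). TNC (tenascin C), a matrix protein of remodelling tissue, had 152 ± 8.92 CPM in sgL1 and 80.1 ± 2.01 CPM in sgCtrl (log2 0.93, adjusted p = 1.44e-13), and the collagen gene COL5A1 rose by 0.50 (9.07e-08). CTGF, a matricellular protein, fell by 0.54 on the log2 scale, with 428 ± 7.2 CPM in sgL1 and 623 ± 21.8 CPM in sgCtrl (adjusted p = 4.77e-12). The list also counts TGFB2, whose latent form is held in the matrix and whose binding by integrins was not tested. TGFB2 fell by 0.73 (7.88e-09), while TGFB1 and TGFB3 did not pass (log2 0.24 and 0.18, adjusted p = 0.0973 and 0.683).

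Of 17 tested basement membrane partners of laminins, 5 rose and 1 fell (median log2 0.22), and 2 fell without sgL1 replicate 3 or 4. COL7A1, the collagen of anchoring fibrils, had 257 ± 40.9 CPM in sgL1 and 123 ± 6.52 CPM in sgCtrl (log2 1.07, adjusted p = 0.00333). LOXL2 and PXDN, enzymes that crosslink collagen IV, had log2 fold changes of 0.22 each (adjusted p = 0.000856 and 0.00228). NTN4, a netrin that binds laminin gamma chains, fell by 0.72 on the log2 scale, with 59.2 ± 2.89 CPM in sgL1 and 97.3 ± 2.3 CPM in sgCtrl (adjusted p = 1.99e-11).

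Of 23 tested laminin receptors other than integrins and hemidesmosome parts, 4 rose and 2 fell (median log2 -0.00), with 2 risen without sgCtrl replicate 2 and 1 fallen without sgCtrl replicate 1. The tetraspanin CD82 had 89.5 ± 8.45 CPM in sgL1 and 52 ± 2.35 CPM in sgCtrl (log2 0.78, adjusted p = 1.21e-08), and SDC4, a syndecan of focal adhesions, rose by 0.32 (1e-06). DST, a plakin found in hemidesmosomes, had 333 ± 10.8 CPM in sgL1 and 432 ± 23.2 CPM in sgCtrl (log2 -0.38, adjusted p = 7.37e-08). PLEC (plectin), higher in the same list at 3097 ± 271 CPM in sgL1 and 3348 ± 91.5 CPM in sgCtrl, did not pass (log2 -0.11, adjusted p = 0.378). CD9, another tetraspanin, fell by 0.18 (adjusted p = 0.0117), a call lost without sgCtrl replicate 1 (0.135).

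Of 30 tested genes of integrin traffic and turnover, 3 rose and 4 fell (median log2 -0.03), with 7 fallen without sgL1 replicate 4, and 1 and 0 risen without sgCtrl replicates 1 and 3. CAV1, the caveolar coat protein, had 380.1 ± 23.3 CPM in sgL1 and 474 ± 8.59 CPM in sgCtrl (log2 -0.32, adjusted p = 5.53e-06). The kinase PRKCA and the early endosome tether EEA1 had log2 fold changes of -0.26 and -0.28 (adjusted p = 5.74e-05 and 0.000998), and the endocytic adaptor NUMB rose by 0.19 (0.00631), a call lost without sgCtrl replicate 3 (0.0993).

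**Figure D5:**
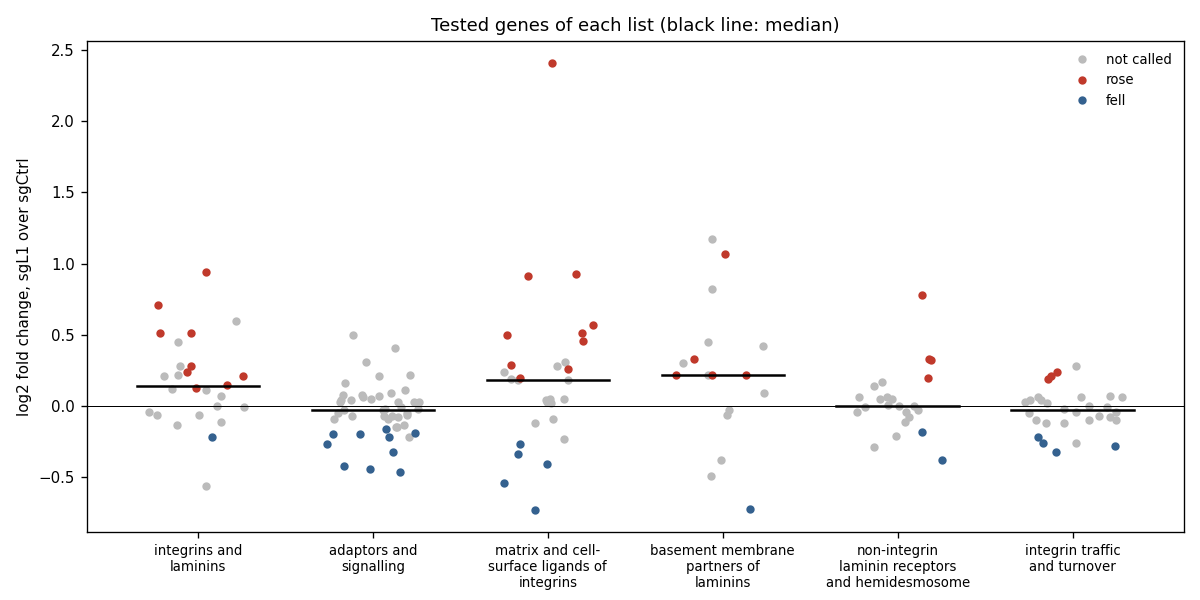
Log2 fold change of sgL1 over sgCtrl for each tested integrin and laminin gene and for the tested genes of the 5 partner lists, with risen genes in red, fallen genes in blue and a black line at the median. Adaptors hold 10 fallen and 0 risen genes of 47 tested (1 risen without sgL1 replicate 3). Of all genes tested 3.98% fell and 5.52% rose. The highest point is SPP1 (osteopontin, 2.41), pointed out after its value was seen, whose call was lost without sgCtrl replicate 1, 2 or 3 (adjusted p up to 0.115).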

How the data were processed

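Per the labels' protocols, RNA was isolated from MDA-MB-231 cells with TRIzol. Build GRCh38 (hg38) and the tools fastp 0.20.1, STAR 2.7.7a and featureCounts 2.0.0 are named in the submitters' processing notes. No source used here gives the tool settings, the annotation release or the use of strand. Reads of overlapping genes on opposite strands (among them LAMA5 with ADRM1, LAMB1 with DLD, ITGAE with HASPIN, ITGB2 with ITGB2-AS1 and ITGB7 with ZNF740) cannot be told apart. The authors deposited whole-number counts per gene and FPKM values, and the FPKM are the counts scaled by a constant per gene and per library (largest relative deviation 6.88e-15).

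Of 59362 rows, 627 without a symbol (0.358% to 0.41% of counts) were left out. Counts were tested with edgeR 4.0.16 in R 4.3.3 (filterByExpr, TMM, robust quasi-likelihood F test, no covariate, Benjamini-Hochberg adjusted p under 0.05 over 15242 genes), and the procedure was tested on simulated data. CPM are TMM-scaled. Alternatives used DESeq2 1.42.0, limma 3.58.1 on log2(FPKM + 1) and log2(FPKM + 0.1), other scalings and filters, and leaving out each library. Every pair of libraries in a group differed by more than sampling noise (2.3 to 9.29 chi-square per gene). Coordinates and overlaps come from GENCODE 29, possibly another release than the authors had. The members and lists were chosen with earlier results of these data known. Named in full are members with an adjusted p under 0.05 and the 3 alpha subunits, 3 beta subunits and 4 laminin chains of highest FPKM, and from each list up to 4 called genes of smallest adjusted p. Some genes that these rules cover are counted but not reported here.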

Additional observations from a re-analysis of the deposited data

How the results depend on the processing

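The number of members that rose stayed within 1.5 times of 9 under all 23 alternatives, between 6 and 10 when a library was left out. ITGA1, ITGA2, ITGA5 and LAMB1 kept their call in all 23. ITGAV lost it in limma on log2(FPKM + 1) alone (adjusted p = 0.055). The number of members that fell was 0 in limma on log2(FPKM + 1), with or without a minimum of 1 FPKM, on log2(FPKM + 0.1) and at an adjusted p under 0.01, 2 with sgL1 replicates 4 to 6 only, and 0 to 1 when a library was left out. The 2 with replicates 4 to 6 only were ITGA3 and ITGB5, as LAMA4 did not pass there (edgeR adjusted p = 0.125). Over all genes, 841 rose and 606 fell. With limma 406 rose and 264 fell on log2(FPKM + 1), and 444 rose and 265 fell on log2(FPKM + 0.1). At an adjusted p under 0.01, 517 rose and 339 fell, and 1053 fell with sgL1 replicates 1 to 3 only. Leaving out a library gave 548 to 958 risen and 352 to 800 fallen genes, the lowest without an sgCtrl library. Of the partner lists, 22 genes rose and 22 fell, against 11 and 14 in limma on either FPKM scale, 14 risen with the 1 FPKM minimum and 14 risen at 0.01, and 15 to 24 risen and 17 to 28 fallen when a library was left out. The causes were not tested.

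The sign of 4 members without a call turned: ITGA6 was -0.01 and ITGB5 0.02 with sgL1 replicates 1 to 3 only and with the replicate block, LAMB2 was -0.02 with replicates 4 to 6 only, and ITGAE, at 0.00, was -0.00 with upper-quartile or library-size scaling, without a filter and in limma on FPKM, -0.08 with replicates 1 to 3 only and with the block, and -0.03 to 0.06 when a library was left out (-0.01 without sgL1 replicate 4 or 6, -0.03 without sgL1 replicate 5 or sgCtrl replicate 2, -0.02 without sgCtrl replicate 3). Same-numbered libraries did not deviate together (r = 0.012, -0.075 and -0.005), so the numbers were not taken as pairs. The replicate block, which uses replicates 1 to 3 of each group, gave 11 risen and 1 fallen member, and 1028 risen and 827 fallen genes in all. The number of expressed members was 21 at a minimum of 0.5 FPKM and 19 at 2 FPKM. Depth limits the 12 untested members, whose levels are at or near the floor of 3 counts.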
